A study of Mus musculus with 16 samples.

Results

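Imprinted genes are expressed mainly or only from the allele inherited from one parent. The set described here was given by name as 37 genes, of which 35 had a row in at least 1 of the 3 deposited tables, out of 32826 genes in all. The tables of projects 1, 2 and 3 list 35, 35 and 34 of them, since Commd1 had no value in project 3. Igf2 and Peg13 were not analysed here. Nap1l4, Ube3a, Commd1, Blcap, Gnas and Trappc9 of the set are known to be imprinted in some tissues only or depending on the transcript. The allele that is expressed is set by DNA methylation placed in the egg or the sperm at imprinting control regions, and kept through later divisions by a machinery that includes Zfp57, Trim28, Uhrf1 and Dnmt1. Many imprinted genes lie in clusters, where 1 control region acts on protein-coding genes of one parental allele and on long non-coding RNAs of the other. In embryonic stem cells in culture, imprints are known to vary between lines and between clones of a line, and the cluster of Meg3 is a known example.

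The 16 libraries were made from mouse E14 embryonic stem cells grown in serum medium with leukaemia inhibitory factor, CHIR99021 and PD0325901, and sequenced in 3 projects. In 14 of them the RNA had been labelled with 4-thiouridine (4sU) for 15 min and purified, so that they hold newly synthesized RNA, and the other 2 hold total RNA of WT cells of project 1. Each group had 2 libraries. Every line, WT included, had auxin for 24 h. The mutants bear on 2 histone acetyltransferase complexes, SAGA and ATAC. AID-Tada3 (a subunit of both complexes), AID-Yeats2 and AID-Zzz3 (subunits of ATAC) carry an auxin-inducible degron, which lets auxin trigger breakdown of the tagged protein, and Supt7l-/- cells lack a core subunit of SAGA. Each mutant was sampled as clone 1 and clone 2, with 1 library per clone. Of the 2 WT 4sU libraries in every project, 1 came from plain WT cells and 1 from WT cells that overexpress Tir1, the plant receptor that degrons need, and BirA, a biotin ligase. Which of these WT lines a mutant was made from is not given in the sources used here, nor is whether the WT libraries of the 3 projects are separate isolates. The counts hold no information on which allele was read.

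The total mouse gene count of a library lay between 8268061 and 15994518 for 4sU RNA, and was 4903998 and 6378707 for total RNA. Levels are given as CPM, a gene's count divided by the library's depth after TMM scaling within a project. The targeted genes were read first. In their own mutants, RNA of Tada3 (12.2 and 10.5 CPM, WT 31.3 and 23.9), Zzz3 (288 and 300 CPM, WT 430 and 448) and Yeats2 (109 and 188 CPM, WT 242 and 256) was below both WT libraries. Supt7l RNA was at 8.87 CPM in clone 1 of Supt7l-/- and at 14.1 CPM in clone 2, which lay within the WT range of 13.9 to 14.3 CPM. RNA of a degron gene does not show its protein, and which part of Supt7l was deleted is not given here, so these levels check the labels only in part. The summed level of 10 naive stem cell markers lay between 2617 and 3221 CPM. Primitive endoderm markers (9) summed to 56.6 to 104 CPM, with Sox17, Sox7 and Foxa2 under 1 CPM in every 4sU library. Those of mesoderm (6) and fibroblasts (6) summed to at most 13.3 and 17.9 CPM, those of trophectoderm (6) to 9.15 to 18.99 CPM, and the 2 neural markers found to at most 21.4 CPM.

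Of the 35 genes, 23 passed the filter on low counts in all 3 projects, Slc22a18 in projects 1 and 3, H19 in project 2, and 10 in none. The 10 were Dlk1 and Rtl1 of the Meg3 cluster, Cdkn1c, Phlda2 and Ascl2 of the Kcnq1ot1 domain, Snrpn, Ndn and Magel2 of the Snrpn domain, the neuronal gene Nnat, and Commd1. Of these 10, the highest count in any 4sU library was 9, for Rtl1. H19, a maternally expressed RNA, had between 0 and 12 counts. Levels of different genes are compared only per kb of annotated exon, as the median over the 6 WT 4sU libraries. On that scale Nap1l4, a histone chaperone, was at 54.5 CPM per kb, the non-coding RNA Rian at 26.5, Ube3a, a ubiquitin ligase, at 23.0, and Impact, a regulator of translation, at 21.3. Meg3 was at 8.43 CPM per kb, Grb10, an adaptor that restrains growth factor signalling, at 3.12, Peg10 at 2.47 and Zim1 at 0.163. The same genes differed widely in how steady they were over the 14 4sU libraries. The highest CPM was 1.23 times the lowest for Nap1l4, 1.35 times for Trappc9 and 1.41 times for Ube3a. It was 34.2 times the lowest for Rian, 33.0 times for Meg3, 30.0 times for Mirg, 9.06 times for Plagl1, 8.83 times for Airn, 7.11 times for Mest and 6.17 times for Grb10. Nap1l4, Trappc9 and Ube3a are of those imprinted in some tissues or transcripts only. Whether they are imprinted in these cells was not tested.

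**Figure D1:**
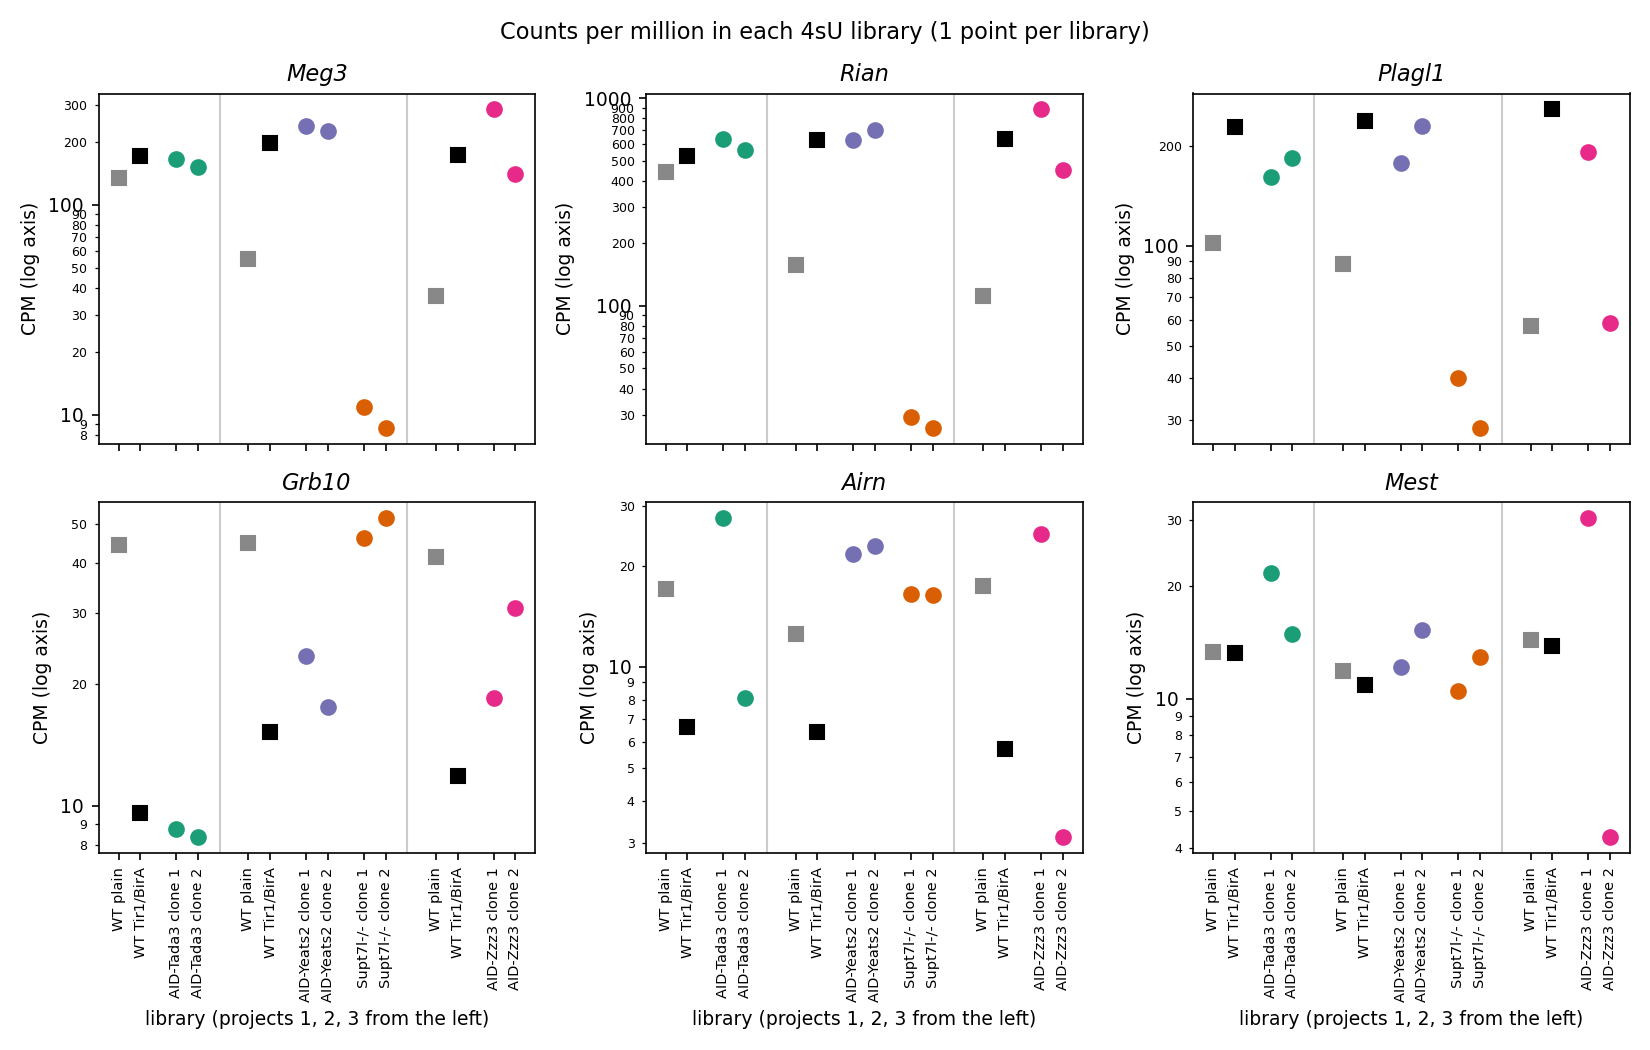
CPM (log axis) of 6 imprinted genes in each of the 14 4sU libraries, with WT as squares (grey plain, black Tir1/BirA), mutant clones as circles and projects separated by vertical lines. The 2 Supt7l-/- clones have the lowest Meg3, Rian and Plagl1 values of all 14, and the WT squares of a project lie apart for Plagl1, Grb10 and Airn in all 3 projects.

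Meg3, Rian and Mirg are non-coding RNAs that are read from the maternal allele of the Dlk1-Dio3 domain, where they host many small nucleolar RNAs and miRNAs. On mm10, Meg3 lies on chromosome 12 from 109541001 to 109571726, Rian from 109603940 to 109661716 and Mirg from 109729764 to 109749460, all on the forward strand. In project 2, Meg3 was at 55.4 CPM in plain WT, 196 in Tir1/BirA WT, 237 and 225 in the AID-Yeats2 clones, and 10.9 and 8.63 in the Supt7l-/- clones. Rian was at 157 and 630 CPM in the WT libraries, 630 and 699 in AID-Yeats2, and 29.1 and 25.8 in Supt7l-/-. Mirg was at 40.4 and 190 CPM in WT, 167 and 181 in AID-Yeats2, and 8.08 and 7.69 in Supt7l-/-. Both Supt7l-/- clones thus lay below both WT libraries, by at least 5.07-fold for Meg3, 5.40-fold for Rian and 5.00-fold for Mirg, while the WT libraries differed from each other by 3.54-fold, 4.01-fold and 4.70-fold. The log2 difference from WT was -3.68 ± 0.91 (SE) for Meg3, -3.84 ± 0.92 for Rian and -3.86 ± 1.11 for Mirg. None of the 3 passed edgeR's quasi-likelihood test (adjusted p 0.19, 0.18 and 0.23). DESeq2 called all 3 (adjusted p 5.8e-05, 1.7e-05 and 0.00054). With either WT library left out, which also takes out the spread between the WT lines, edgeR called all 3: the difference for Meg3 was -2.50 against plain WT alone and -4.33 against Tir1/BirA WT alone. With either Supt7l-/- clone left out edgeR called none of the 3 (adjusted p between 0.52 and 0.58). With scaling to the spike-in RNA the difference for Meg3 was -4.07 and passed (adjusted p 9.2e-18), and those of Rian and Mirg did not (adjusted p 0.064 and 0.17). The 3 RNAs moved together and each group had 2 libraries, so the far smaller p of Meg3 is not read as stronger support. Why the fit gave it was not tested. The authors' deposited table has Meg3 at -1.28 (adjusted p 0.0026), Rian at -1.26 (0.0029) and Mirg at -0.98 (0.024) on its log2 scale. The factors behind the authors' normalized signal followed the spike-in counts. Plain WT had a factor of 0.890 at 1589788 spike-in counts, and AID-Yeats2 clone 1 had 1.28 at 2296779. Their mouse gene counts were 10542251 and 9713069. The authors' differences are thus to be read beside the fits with spike-in scaling, not those with TMM. Even so, Meg3 was at -4.07 with spike-in scaling and is at -1.28 by the authors. Why the authors' value is smaller in size was not tested. Here and below, the sizes of their differences are therefore not compared with those of the fits.

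The 3 RNAs kept close proportions in all 14 4sU libraries: reads of Rian were 2.66 to 3.83 times those of Meg3, and reads of Mirg 0.703 to 1.13 times. In the Supt7l-/- clones these ratios were 2.67 and 2.99 for Rian and 0.740 and 0.890 for Mirg. Other genes of the domain were looked up after the values of Meg3 had been seen. The unnamed non-coding genes Gm37899 and B830012L14Rik, between Rian and Mirg, were at 5.91 and 6.11 CPM and at 3.18 and 2.53 CPM in the Supt7l-/- clones, against 33.3 and 133 CPM and 18.8 and 76.0 CPM in WT. Gm34081, on the reverse strand before Meg3, was at 1.48 and 0.526 CPM in the clones and 4.83 and 8.76 CPM in WT, and it fell by 2.76 ± 0.44 on the log2 scale (adjusted p 0.0068). In AID-Yeats2 Gm34081 was at 12.7 and 15.2 CPM and rose by 1.05 ± 0.28 (adjusted p 0.047). Gm37899 and B830012L14Rik passed in neither mutant (adjusted p 0.22 and 0.22 in Supt7l-/-, 0.70 and 0.69 in AID-Yeats2). The tables of project 2 list 38 miRNA genes between the start of Meg3 and the end of Mirg. They held 10 and 14 reads in all in the Supt7l-/- clones, 60 in plain WT, 269 in Tir1/BirA WT, and 236 and 277 in AID-Yeats2. The paternally expressed genes of the domain stood near 0 in every 4sU library: Dlk1 had at most 4 counts and Rtl1 at most 9. Dio3, a deiodinase gene at the far end, was at 0.796 and 1.37 CPM in Supt7l-/- and 0.773 and 1.18 CPM in WT.

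**Figure D2:**
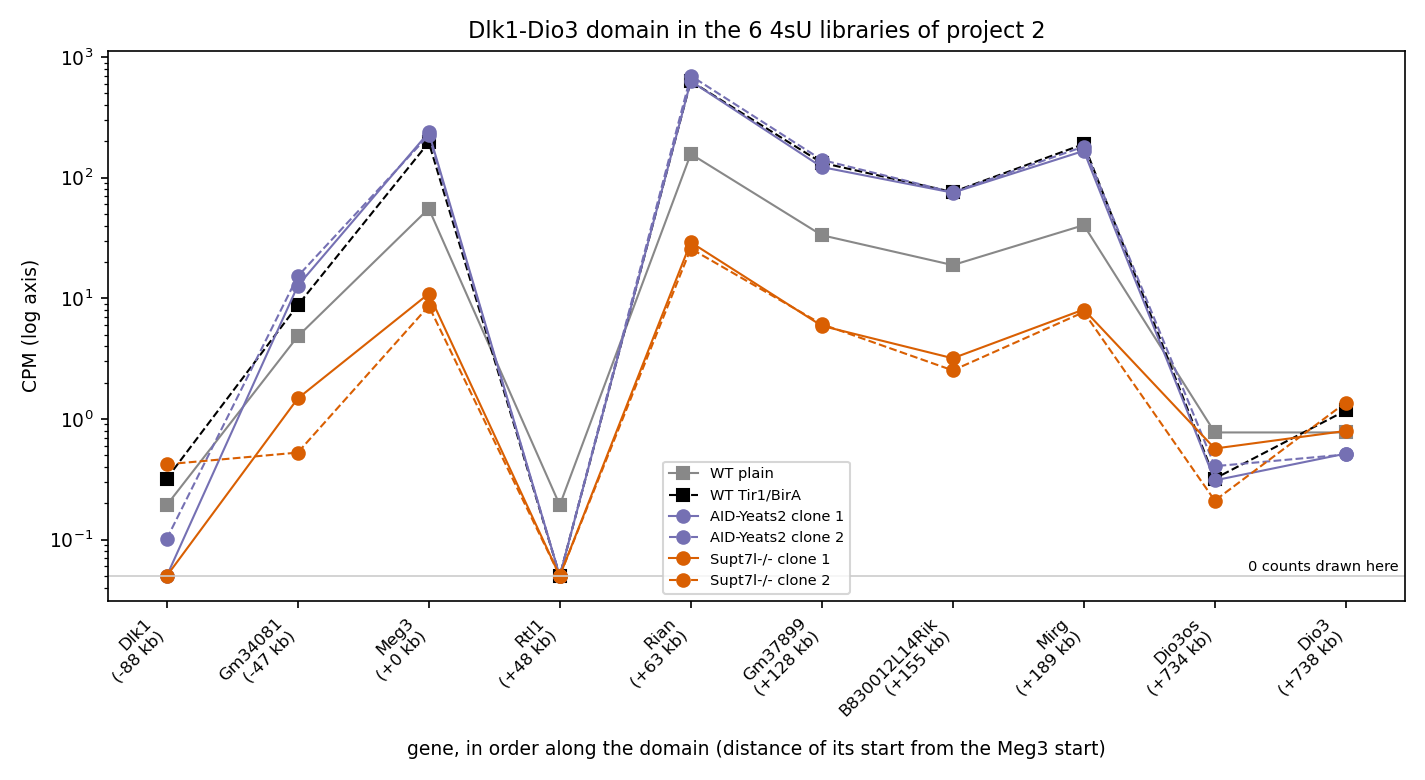
CPM (log axis) of 10 genes in order along the Dlk1-Dio3 domain in the 6 4sU libraries of project 2, with the distance of each gene's start from that of Meg3 in kb. Lines join the genes of 1 library. From Gm34081 to Mirg the Supt7l-/- clones lie below plain WT, which lies below Tir1/BirA WT and the AID-Yeats2 clones, whereas Dlk1, Rtl1, Dio3os and Dio3 are at most 1.37 CPM in all 6.

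The mature forms of the 2 miRNA genes of this stretch with the most reads, Mir434 and Mir433, are shown as examples of the small RNAs that the domain encodes. Both lie within the span of Rtl1 on chromosome 12, with the mature sequences from 109594528 to 109594586 and from 109591729 to 109591802, and are known to be read from the maternal allele, antisense to it. Which RNA the reads counted there came from was not tested. Sequences are those of RefSeq (GRCm38.p6), with the seed, bases 2 to 8, in capitals, and none of the 4 seeds is shared.
mmu-miR-434-5p: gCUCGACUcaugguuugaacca
mmu-miR-434-3p: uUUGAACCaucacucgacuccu
mmu-miR-433-5p: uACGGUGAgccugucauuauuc
mmu-miR-433-3p: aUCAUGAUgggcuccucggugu

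The Meg3 cluster also separated the WT lines. In plain WT against Tir1/BirA WT, Meg3 was at 135 against 170 CPM in project 1, 55.4 against 196 in project 2 and 37.0 against 173 in project 3. Rian was at 440 against 526, 157 against 630 and 112 against 637 CPM. Plain WT was the lower of the pair in all 3 projects for Meg3, Rian and Mirg, and its own Meg3 level was highest in project 1. Across the 3 projects the log2 difference of the Tir1/BirA line was 1.43 ± 0.53 for Meg3, 1.59 ± 0.65 for Rian and 1.53 ± 0.57 for Mirg, and none passed (adjusted p 0.45, 0.49 and 0.45). With project 1 left out all 3 passed, with differences of 2.01 for Meg3, 2.25 for Rian and 2.18 for Mirg.

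Other imprinted genes also differed between the WT lines in the same direction in each project. Grb10 (chromosome 11, 11930508 to 12038683) was at 44.4, 44.8 and 41.4 CPM in plain WT and at 9.58, 15.3 and 11.9 CPM in Tir1/BirA WT. The lines did not overlap, and the log2 difference of the Tir1/BirA line was -1.86 ± 0.13 (adjusted p 0.00039). Airn, the paternally read RNA antisense to Igf2r (chromosome 17, 12741311 to 12860122), was at 17.0, 12.6 and 17.4 CPM in plain WT and at 6.64, 6.41 and 5.70 CPM in the Tir1/BirA line, a log2 difference of -1.32 ± 0.16 (adjusted p 0.0078). Without project 2, Airn did not pass (adjusted p 0.096). Plagl1, a zinc finger transcription factor (chromosome 10, 13060504 to 13131694) was at 102, 87.8 and 57.3 CPM in plain WT and at 227, 236 and 257 CPM in the Tir1/BirA line. Its log2 difference was 1.57 ± 0.21, and it missed the threshold in edgeR (adjusted p 0.072) and passed in DESeq2 (adjusted p 3.8e-05) and in edgeR without the project block, without project 1 and without project 3. Gnas, which encodes a G protein subunit, was at 38.8, 36.4 and 42.5 CPM in plain WT and 30.4, 26.2 and 30.3 CPM in the Tir1/BirA line (log2 difference -0.44 ± 0.09, adjusted p 0.058). In all, 2 of the 23 imprinted genes tested were called, both lower, against 1.24% of the 14181 genes tested (0.437% higher and 0.804% lower). DESeq2 called 3, Plagl1 higher and Grb10 and Airn lower, where 1.5% of all genes were called (0.691% higher and 0.811% lower). The edgeR count moved with the project left out, as did that of all genes, with both ranges given in the last section. In total RNA of project 1, which that comparison did not use, Grb10 was at 55.8 CPM in plain WT and 30.5 in the Tir1/BirA line, Airn at 15.9 and 1.85 on 82 and 12 reads, and Plagl1 at 76.6 and 159. All 3 differed in the same direction as in the 4sU libraries of that project, with 1 library of each line.

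The mutant libraries were then set beside the 2 WT lines for every imprinted gene whose WT libraries differed by at least 2-fold in that project at a mean of at least 1 CPM, a comparison added after the data had been seen. In project 1 these were Plagl1, Grb10 and Airn. In project 2 they were Meg3, Rian, Mirg, Plagl1, Grb10 and Zim1, and in project 3 Meg3, Rian, Mirg, Plagl1, Grb10 and Airn. In the AID-Yeats2 clones, 5 and 5 of the 6 genes were nearer to the Tir1/BirA line on the log2 scale. Of the 500 genes with such a WT difference in project 2, 43.4% and 42.4% were. In the Supt7l-/- clones 0 and 0 of the 6 were nearer to the Tir1/BirA line (25.8% and 29.0% of the 500 genes). In AID-Zzz3 the counts were 5 and 4 of 6 (262 and 224 of 448 genes), and in AID-Tada3 2 and 3 of 3 (80.0% and 80.5% of 569 genes). Grb10 illustrates this with 23.5 and 17.6 CPM in AID-Yeats2, 8.78 and 8.38 CPM in AID-Tada3, 18.6 and 30.9 CPM in AID-Zzz3, and 46.2 and 51.7 CPM in Supt7l-/-. Being nearer to a line does not mean being at its level. Outside the range of the 2 WT libraries lay 6 and 6 of the 6 genes in Supt7l-/- and 3 and 3 in AID-Yeats2. In AID-Zzz3 it was 4 and 1 of 6, and in AID-Tada3 2 and 1 of 3. The share of all genes outside that range is not given here. Because the line each mutant was made from is not given, a difference that came with the line and one that came with the mutation cannot be told apart here.

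**Figure D3:**
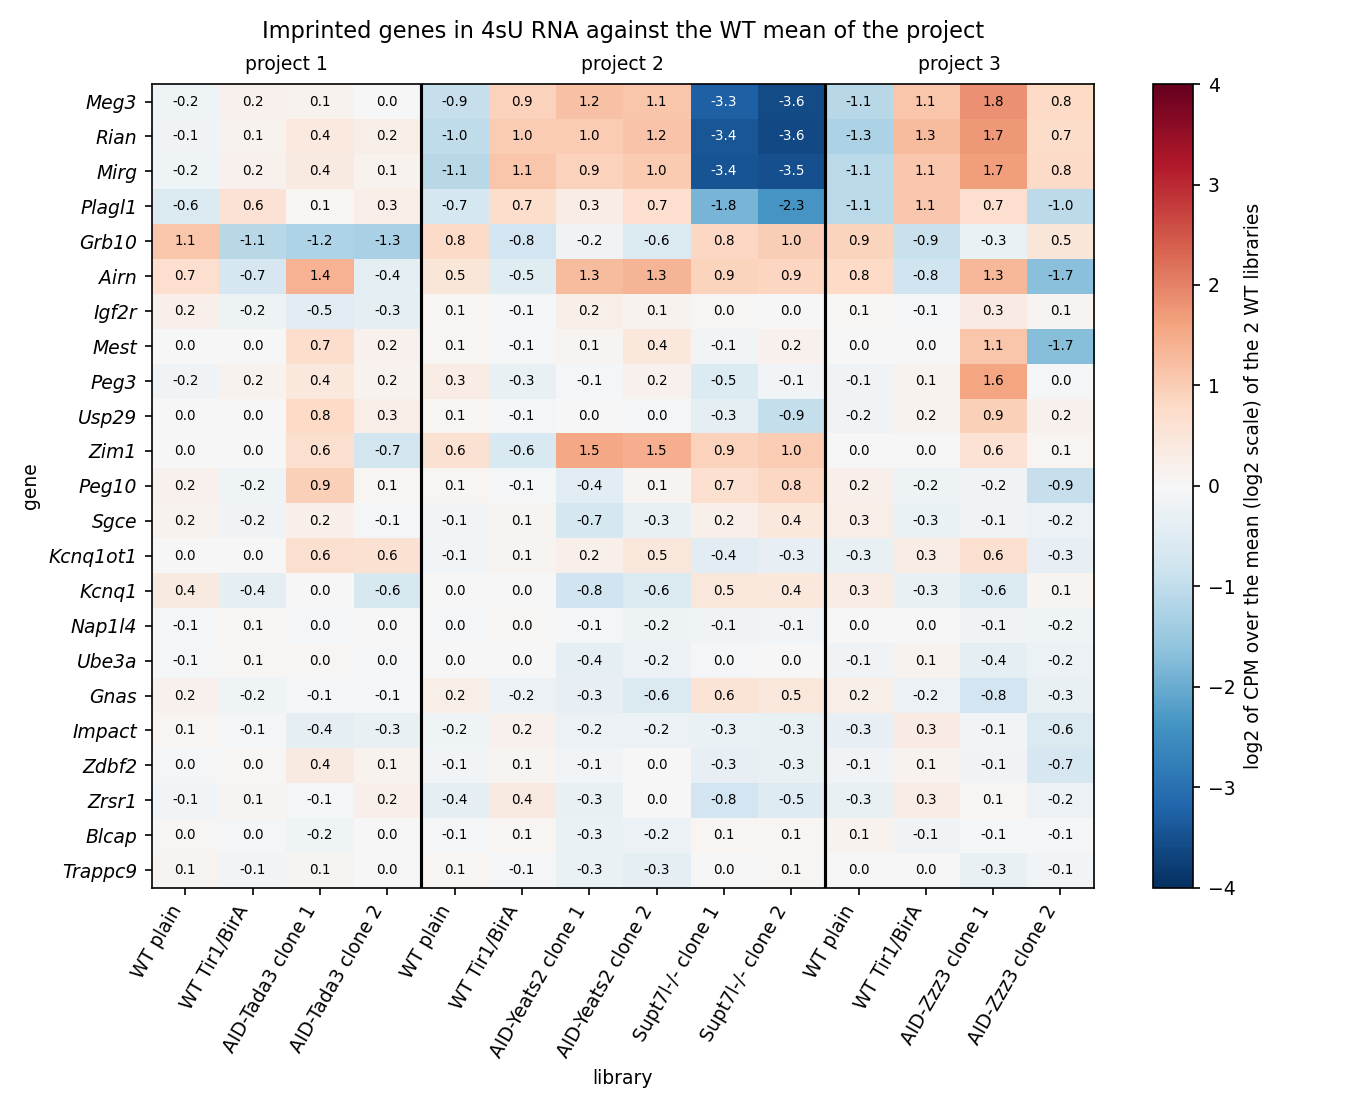
Log2 CPM of the 23 imprinted genes tested in all projects in each 4sU library, relative to the mean of the 2 WT libraries of the same project (blue lower, red higher). The 4 deepest blue pairs are Meg3, Rian, Mirg and Plagl1 in the Supt7l-/- clones, and the 2 WT columns of a project mirror each other for every gene, because their mean is the zero of the scale.

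In Supt7l-/- cells against WT, 1 of 24 imprinted genes was called by edgeR, Peg10, while 3.33% of all 14513 genes were called (1.32% higher and 2.02% lower). An unadjusted p under 0.05 was found for 12 of the 24, beside 2655 of the 14513. Peg10, a paternally expressed gene derived from a retrotransposon (chromosome 6, 4747306 to 4760517), was at 28.1 and 31.7 CPM in the clones and 18.9 and 16.9 CPM in WT. It rose by 0.74 ± 0.16 on the log2 scale (adjusted p 0.023). With spike-in scaling its difference was 0.38 and did not pass (adjusted p 0.31), and with all 14 4sU libraries fitted together it was 0.74 and did not pass (adjusted p 0.34). Its neighbour Sgce, read from the same control region, was at 9.33 and 10.8 CPM against 7.63 and 8.76 CPM (adjusted p 0.46). Plagl1 was at 40.0 and 28.3 CPM in the clones against 87.8 and 236 in WT, a log2 difference of -2.24 ± 0.66 that edgeR did not call (adjusted p 0.24) and DESeq2 did (adjusted p 0.0086). In the authors' deposited table, whose factors followed the spike-in counts, Plagl1 is at -1.26 (adjusted p 0.0033). Kcnq1ot1 (-0.65, adjusted p 0.022), Zdbf2 (-0.60, 0.029) and Impact (-0.59, 0.035) are also under 0.05 there. Kcnq1ot1, the paternal non-coding RNA of its domain, was at 260 and 277 CPM in the clones and 324 and 374 in WT (log2 difference -0.38, adjusted p 0.062, and 0.032 by DESeq2). DESeq2 called 1 of the 24 higher (Peg10) and 5 lower (Meg3, Rian, Mirg, Plagl1 and Kcnq1ot1), against 2.58% of all genes (0.91% higher and 1.67% lower). With spike-in scaling, which moved the median of all genes to -0.36, edgeR called 0 higher and 4 lower (Meg3, Plagl1, Zrsr1 and Kcnq1ot1), against 4.64% of all genes (0.22% higher and 4.42% lower). With single libraries left out in turn the count of imprinted genes called moved, and so did that of all genes. Both ranges are given in the last section. The groups did not overlap for 19 of 24 genes (48.4% of all genes). Both clones lay at least 2-fold below both WT libraries for 4 of the 24, Meg3, Rian, Mirg and Plagl1, and for 0.664% of 14164 genes. Since Meg3, Rian and Mirg lie in 1 cluster and kept close proportions, a count that holds all 3, here and elsewhere, is not one of separate loci. The summed trophectoderm markers were highest of all 4sU libraries in these clones, at 18.99 and 18.21 CPM, and lay between 9.94 and 12.7 CPM in WT of the project, with Elf5, Hand1 and Krt7 under 1 CPM throughout. The naive markers lay between 2617 and 2695 CPM against 2972 to 3131 CPM. The part of these shifts in the imprinted genes was not tested.

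The promoter sequences of Meg3, Plagl1 and Mest are shown because these genes differed most between libraries among those whose promoter held the motif. The 250 bases before each RefSeq start (GRCm38.p6) were searched for TGCCGC, or GCGGCA on the other strand, the core that the imprint keeper Zfp57 is known to bind when methylated. Of 26 imprinted genes with such a window, 5 held it, in 6 of 38 windows, and 8.68% of all 32851 windows did. The other 2 genes with a match were Zdbf2 and Zim1, and the windows of Grb10, Airn, Rian and Mirg had none. Of the 6 windows, 2 are windows of Mest, from 30737800 and from 30737803, that hold the same matches. The GC content of the matching windows was 52.4% (Meg3) to 70.4% (Plagl1), beside a median of 52.4% over all windows. The shares were not matched for GC content and are not read as enrichment. Capitals mark the matches.
Meg3, chr12:109540746-109540995, forward strand: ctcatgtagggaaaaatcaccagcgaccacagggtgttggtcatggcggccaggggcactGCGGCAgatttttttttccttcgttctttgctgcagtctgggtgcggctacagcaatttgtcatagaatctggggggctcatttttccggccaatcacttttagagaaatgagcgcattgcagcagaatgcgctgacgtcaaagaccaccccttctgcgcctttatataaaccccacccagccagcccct
Plagl1, chr10:13090582-13090831, forward strand: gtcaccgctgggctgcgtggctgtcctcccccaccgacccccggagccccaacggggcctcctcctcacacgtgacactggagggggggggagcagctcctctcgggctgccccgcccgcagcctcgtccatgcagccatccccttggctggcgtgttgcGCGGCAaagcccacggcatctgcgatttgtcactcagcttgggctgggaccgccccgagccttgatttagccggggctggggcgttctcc
Mest, chr6:30737800-30738049, forward strand: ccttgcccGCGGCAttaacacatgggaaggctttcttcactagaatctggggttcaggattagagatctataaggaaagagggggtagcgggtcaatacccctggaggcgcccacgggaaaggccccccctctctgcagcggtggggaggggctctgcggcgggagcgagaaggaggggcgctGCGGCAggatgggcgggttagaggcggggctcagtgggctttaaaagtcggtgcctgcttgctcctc

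In AID-Yeats2 cells against WT, 5 of 24 imprinted genes were called, 2 higher and 3 lower, against 7.24% of 14513 genes (3.92% higher and 3.32% lower). With all 14 4sU libraries fitted together none of the 5 passed (adjusted p 0.083 for Ube3a, 0.084 for Trappc9, 0.10 for Zim1, 0.26 for Kcnq1 and 0.62 for Airn). Airn was at 21.7 and 22.8 CPM in the clones and at 12.6 and 6.41 CPM in WT. It rose by 1.22 ± 0.23 on the log2 scale (adjusted p 0.012), and by 0.73 with spike-in scaling (adjusted p 0.041). Igf2r, the receptor gene that Airn overlaps on the other strand, was at 68.5 and 64.2 CPM against 61.6 and 54.5 (log2 difference 0.19, adjusted p 0.25). Zim1, a maternally expressed zinc finger gene next to Peg3, was at 3.30 and 3.15 CPM against 1.74 and 0.748 CPM, on 7 to 32 reads per library over the series, a rise of 1.34 ± 0.39 (adjusted p 0.049). With spike-in scaling Zim1 did not pass (adjusted p 0.13), and DESeq2 gave no adjusted p for it. Kcnq1, a potassium channel gene, was at 6.20 and 7.31 CPM against 10.8 and 10.9 CPM, and fell by 0.68 ± 0.18 on the log2 scale (adjusted p 0.033). The antisense RNA Kcnq1ot1, within the same locus, was at 399 and 482 CPM against 324 and 374 CPM (log2 difference 0.34, adjusted p 0.062). Ube3a was at 392 and 428 CPM against 495 and 512, and fell by 0.30 ± 0.06 (adjusted p 0.013), and Trappc9, a trafficking gene, was at 144 and 136 CPM against 184 and 162, and fell by 0.31 ± 0.08 (adjusted p 0.031). DESeq2 called 2, Airn higher and Ube3a lower, against 4.11% of all genes (2.27% higher and 1.85% lower). With spike-in scaling, which moved the median of all genes to -0.50, 1 imprinted gene was called higher and 9 lower, against 22.8% of all genes (0.393% higher and 22.4% lower). Meg3, Rian and Mirg had the largest differences that were not called, 0.88 ± 0.69 for Meg3 (adjusted p 0.58), 0.76 for Rian and 0.60 for Mirg. The difference for Mirg was -0.13 without plain WT and 2.11 without Tir1/BirA WT. How many imprinted genes were called depended on the library left out, as it did for all genes, with both ranges given in the last section. The groups did not overlap for 15 of 24 genes (51.2% of all genes). In the authors' deposited table, whose factors followed the spike-in counts, Airn is at 0.58 (adjusted p 0.049), Kcnq1 at -0.92 (0.0044), Ube3a at -0.71 (0.0021) and Trappc9 at -0.73 (0.0018). Also under 0.05 there are Gnas (-0.86, adjusted p 0.0015), Impact (-0.66, 0.0059), Nap1l4 (-0.57, 0.0084), Blcap (-0.64, 0.015), Sgce (-0.71, 0.029) and Zdbf2 (-0.48, 0.030). That scale holds the general fall seen with spike-in scaling, and the share of all genes in it is not given here. The primitive endoderm markers summed to 78.4 and 79.9 CPM in the clones and to 64.7 and 60.7 CPM in WT, those of mesoderm to 11.2 and 9.14 CPM against 9.08 and 6.20, and those of fibroblasts to 17.9 and 5.28 CPM against 13.2 and 11.01. The part of these values in the imprinted genes was not tested.

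In AID-Tada3 cells edgeR called 0 of 24 imprinted genes and 0.0331% of 15099 genes. An unadjusted p under 0.05 was found for 7 of the 24, beside 1208 of the 15099. The gene nearest to the threshold was Kcnq1ot1, at 577 and 569 CPM in the clones and 372 and 374 CPM in WT. Its log2 difference was 0.62 ± 0.09 (adjusted p 0.076). Both clones lay at least 1.52-fold above both WT libraries. DESeq2 called it (adjusted p 8.5e-06), as 1 higher gene where 0.212% of all genes were called (0.053% higher and 0.159% lower). So did edgeR with spike-in scaling (0.46, adjusted p 0.0051), where 1.56% of all genes were called (0.159% higher and 1.4% lower). Grb10 had the largest difference, -1.66 ± 0.99 (adjusted p 0.77), with the clones at 8.78 and 8.38 CPM next to Tir1/BirA WT at 9.58. Airn was at 27.7 CPM in clone 1 and 8.08 in clone 2. The groups did not overlap for 9 of 24 genes (39.6% of all genes). Leaving out single libraries moved the counts of imprinted genes and of all genes called, with both ranges given in the last section. The primitive endoderm markers summed to 104 and 96.9 CPM in the clones and to 75.9 and 81.5 CPM in WT, and those of mesoderm to 10.7 and 10.2 CPM against 6.11 and 8.15 CPM. Their part in these differences was not tested.

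In AID-Zzz3 cells edgeR also called 0 of 24 imprinted genes, and 0.984% of 14529 genes (0.681% higher and 0.303% lower). An unadjusted p under 0.05 was found for 2 of the 24, beside 1869 of the 14529. DESeq2 called 0, and 1.8% of all genes (1.17% higher and 0.626% lower), with 3 imprinted genes and 1070 of all genes at an unadjusted p under 0.05. With spike-in scaling, which moved the median of all genes to -0.36, edgeR called 0 higher and 5 lower (Ube3a, Gnas, Nap1l4, Trappc9 and Zdbf2), against 25.3% of all genes (0.888% higher and 24.4% lower). The authors' deposited table, whose factors followed the spike-in counts, has the same genes under 0.05, from Ube3a (-0.60, adjusted p 0.00071) to Zdbf2 (-0.63, 0.0075). Impact (-0.61, 0.0068) and Peg10 (-0.65, 0.023) are also lower there. The share of all genes in that table is not given here. The groups did not overlap for 7 of 24 (44.7% of all genes). The 2 clones differed from each other instead. Airn was at 24.9 CPM in clone 1 and 3.13 in clone 2, on 208 and 41 reads, and at 17.4 and 5.70 CPM in WT. Mest, a paternally expressed hydrolase-like gene (chromosome 6, 30723547 to 30748465), was at 30.4 CPM in clone 1 and 4.28 in clone 2, on 254 and 56 reads, and at 14.3 and 13.8 CPM in WT. Peg3, a paternally expressed zinc finger gene, was at 37.3 CPM in clone 1 and 12.1 in clone 2, and at 11.3 and 13.6 CPM in WT. Clone 1 was the higher one for all 3, and its Mest and Peg3 values were the highest of the 14 4sU libraries, while the Mest and Airn values of clone 2 were the lowest. Plagl1 was at 192 and 58.8 CPM and Meg3 at 284 and 140 CPM, again with clone 1 higher. Mirg was at 231 and 123 CPM in the clones and 34.4 and 151 CPM in WT. The largest log2 differences from WT were 1.02 ± 1.02 for Meg3 (adjusted p 0.78), 0.96 ± 0.57 for Peg3 (adjusted p 0.56) and 0.93 ± 0.97 for Mirg (adjusted p 0.78), none of them called. Without clone 2, Peg3 was called (log2 difference 1.58, adjusted p 0.029), and without Tir1/BirA WT Gnas was (-0.76, adjusted p 0.049). The 2 neural markers found summed to 21.4 CPM in clone 1 and 8.25 CPM in clone 2 (WT 8.96 and 8.31), and the primitive endoderm markers to 82.9 and 98.5 CPM (WT 69.3 and 56.6). Clone 1 had the lowest mouse gene count of the 4sU libraries, 8268061, and clone 2 had 13003804. The part of these values in the clone differences was not tested.

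Differences between the 2 libraries of a group were therefore described gene by gene, with no test, since each clone or line has 1 library in a project. Among genes with a mean of at least 1 CPM, 5 of 24 imprinted genes differed by at least 2-fold between the AID-Zzz3 clones (3.14% of all genes): Airn by 7.95-fold, Mest by 7.11-fold, Plagl1 by 3.26-fold, Peg3 by 3.09-fold and Meg3 by 2.03-fold. Between the AID-Tada3 clones 2 of 23 did (0.917% of all genes), Airn by 3.43-fold and Zim1 by 2.59-fold. None did between the AID-Yeats2 clones (0 of 23, and 1.93% of all genes) or between the Supt7l-/- clones (0 of 24, and 2.63%). Between the WT lines it was 3 of 23 in project 1 (4.13%), 6 of 23 in project 2 (3.63%) and 6 of 24 in project 3 (3.27%). Over the 7 pairs, Airn and Plagl1 passed 2-fold in 4, Meg3 and Grb10 in 3, Rian, Mirg and Zim1 in 2, and Mest and Peg3 in 1. Of the 23 genes tested in all projects, 14 never did, among them Igf2r, Kcnq1ot1, Peg10, Impact, Gnas, Ube3a, Zdbf2 and Trappc9. The median size of the log2 ratio within the AID-Zzz3 pair was 0.70 for imprinted genes and 0.18 for all genes, and within the Supt7l-/- pair 0.10 and 0.13.

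**Figure D4:**
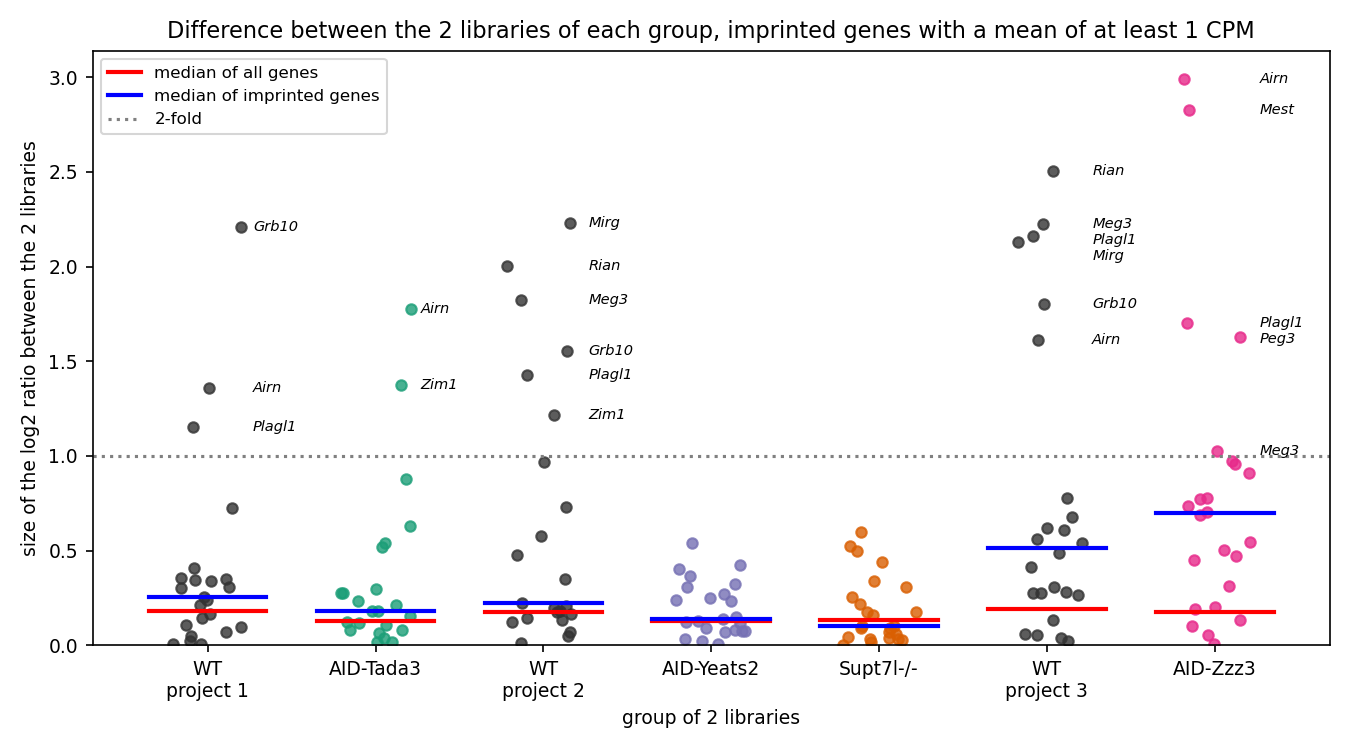
Size of the log2 ratio between the 2 libraries of each group, with 1 point per imprinted gene at a mean of at least 1 CPM. Blue bars are medians of imprinted genes, red bars medians of all genes, and the dotted line is 2-fold. Named points lie past 2-fold, in every pair but AID-Yeats2 and Supt7l-/-.

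AID-Yeats2 and Supt7l-/- were also set against each other within project 2, a comparison added after the data had been seen. It does not use the WT libraries for the difference. The fit nevertheless held all 6 4sU libraries of project 2, so the spread between the WT lines enters its p-values. Of 24 imprinted genes 8 passed, 6 higher and 2 lower in Supt7l-/-, against 16.3% of 14513 genes (7.32% higher and 8.95% lower). Gnas was at 45.4 and 42.3 CPM in Supt7l-/- and 24.4 and 20.5 CPM in AID-Yeats2, a log2 difference of 0.97 ± 0.15 (adjusted p 0.0011). Kcnq1 was at 15.0 and 14.4 CPM against 6.20 and 7.31 CPM, and the RNA Kcnq1ot1 of the same locus at 260 and 277 CPM against 399 and 482 CPM, so that the pair differed in opposite directions. Meg3, Rian and Mirg lay 20.6-fold, 21.7-fold and 20.6-fold apart at the nearest libraries and did not pass in edgeR (adjusted p 0.068, 0.072 and 0.10). DESeq2 called all 3, and in all 5 higher and 5 lower, against 9.63% of all genes (4.02% higher and 5.6% lower). With spike-in scaling 4 were higher and 2 lower, against 4.75% of all genes (2.48% higher and 2.27% lower). The groups did not overlap for 21 of 24 genes (61.7% of all genes). The edgeR count fell with clone 1 of AID-Yeats2 or either clone of Supt7l-/- left out. How far the count of all genes moved with it is not given here.

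In WT cells of project 1, 4sU and total RNA were compared over the 24 imprinted genes that also passed the filter in 4sU RNA alone. Of these 14 differed, 5 higher and 9 lower in 4sU RNA, beside 62.9% of 14092 genes (31.3% higher and 31.6% lower). DESeq2 called 13, 4 higher and 9 lower, beside 55.1% of all such genes (26.3% higher and 28.8% lower). Over all 14494 genes tested the shares were 63.4% in edgeR (30.4% higher and 33.0% lower) and 55.3% in DESeq2 (25.6% higher and 29.7% lower). Each kind of RNA had 1 library of either WT line, and with the replicate block for the line edgeR called 20, 8 higher and 12 lower, beside 73.4% of these genes (37.5% higher and 35.9% lower). The 6 added by the block were Sgce, Airn and Plagl1 higher, and Grb10, Mirg and Blcap lower. Ribosomal RNA was removed from the total RNA but not from the 4sU RNA, per the labels' protocols. The 5 higher in newly made RNA without the block were Trappc9 (1.32 ± 0.21 on the log2 scale, adjusted p 0.0011), Kcnq1 (1.03 ± 0.36, adjusted p 0.037), Ube3a (0.93), Zdbf2 (0.51) and Kcnq1ot1 (0.44). Those lower were the coding genes Impact, at 118 and 108 CPM in 4sU RNA and 383 and 418 in total RNA (-1.83 ± 0.14, adjusted p 4.9e-05), Peg3 (-1.87), Peg10 (-1.86), Mest (-1.79), Usp29 (-1.67), Igf2r (-1.31), Zrsr1 (-1.15), Gnas (-1.13) and Nap1l4 (-0.49). The largest differences not called without the block were 0.93 ± 0.48 for Sgce (adjusted p 0.13), -0.63 ± 0.76 for Grb10 (adjusted p 0.51) and -0.61 ± 0.49 for Slc22a18 (adjusted p 0.31). With the block the differences were 0.97 for Sgce (adjusted p 0.0031) and -0.86 for Grb10 (adjusted p 3.3e-07), but that for Grb10 without the block was 0.12 when the 4sU Tir1/BirA library was left out. Meg3 and Rian differed by 0.00 and 0.02 (adjusted p 0.99 and 0.93). Ascl2, Cdkn1c, Ndn and Phlda2 passed the filter only through total RNA, where they are high, so that their direction was fixed by the filter and they are not counted here. Ndn had 29 and 32 reads in total RNA and 5 and 7 in 4sU RNA, and Ascl2 14 and 9 against 1 and 1.

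Genes that act on imprints, and other imprinted genes, were counted from 2 further lists. Beside genes that keep methylation, the first holds the demethylases Tet1, Tet2 and Tet3 and the Polycomb genes Eed, Ezh2 and Suz12. Calls in it are therefore not read as a change in imprint upkeep. Of 25 genes of the first list tested in project 2, 3 were called in Supt7l-/-, all lower, beside 3.33% of all genes: the DNA demethylase Tet3 (-0.82 ± 0.14, adjusted p 0.0050), Uhrf1, which guides Dnmt1 to newly copied DNA (-0.50 ± 0.09, adjusted p 0.0093), and the Polycomb subunit Suz12 (-0.50 ± 0.10, adjusted p 0.023). In AID-Yeats2 the maintenance methyltransferase Dnmt1 fell (-0.49 ± 0.08, adjusted p 0.0013), Smchd1 fell (-0.25) and the methyltransferase Dnmt3b rose (0.39), 3 of 25 beside 7.24% of all genes. In AID-Tada3, AID-Zzz3 and the Tir1/BirA line edgeR called none of the list. The list's median log2 difference lay between -0.06 and 0.02 in these 5 comparisons. Of 29 other imprinted or neighbouring genes tested in project 2, 2 were called in Supt7l-/- (3.33% of all genes), where Cobl (-0.32) and the antisense RNA Nespas (-0.40) fell. In AID-Yeats2 3 of the 29 were called (7.24% of all genes): Cd81 rose (0.37), and H13 (-0.37) and Sfmbt2 (-0.31) fell. Ppp1r9a, next to Peg10, was lower in the Tir1/BirA line (-0.55 ± 0.11, adjusted p 0.048). By the parent whose allele is usually read, 11 paternal and 8 maternal genes were tested in each mutant, and the median of all genes was 0.00 to 2 decimals. The paternal and maternal medians of the log2 difference were -0.31 and 0.23 in Supt7l-/-, -0.03 and 0.40 in AID-Yeats2, 0.29 and -0.14 in AID-Tada3, and -0.10 and 0.42 in AID-Zzz3. The maternal genes include Meg3, Rian and Mirg, so that in Supt7l-/- their median has the sign opposite to theirs.

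Some of these genes share their locus with a gene on the other strand: Airn with Igf2r, Kcnq1ot1 with Kcnq1, Zrsr1 with Commd1, and Mest with Copg2, which covers 23.1% of its exon bases. The libraries kept strand per the labels' protocols, but the strand setting of the counting is not given in the sources used here, so reads of such pairs may have been mixed. On the same strand, Snrpn shares 27.3% of its exon bases with other genes, chiefly Gm38393, and Commd1 shares 4.95%, chiefly with Gm28048. The part of such sharing in their low counts was not tested.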

How the data were processed

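RNA of 16 libraries was measured. Raw counts of reads for each mouse gene and spike-in gene (Drosophila in project 1, S. pombe in projects 2 and 3) were deposited by the authors, with a normalized signal, median transcript lengths and other annotation, and log2 fold changes and p-values of mutants against WT. Per the submitters' processing notes, tools were HTSeq 0.6.1p1, STAR 2.5.3a, Bowtie2 2.2.8 and DESeq2 1.16.1, and the build mm10. Strand setting and multimapping rules are not given in the sources used here.

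Raw counts were analysed with edgeR 4.0.16 (limma 3.58.1, R 4.3.3): filterByExpr (minimum count 10), TMM, a robust quasi-likelihood fit per project over all genes, Benjamini-Hochberg at 0.05. Unless DESeq2 (1.42.0) or the authors' table is named, each adjusted p is edgeR's over all genes tested. The 6 WT 4sU libraries were fitted with project as a block. Members and lists were chosen with earlier results of these data known. Called genes (at most 10 by smallest p), the 3 largest differences not called in each comparison and genes past 2-fold within a pair were named, with library values for those the results turn on. 4sU and total RNA libraries pair by WT line, per the labels, and were fitted without and with that block. Where nothing says that libraries are separate cultures, p-values measure only the spread between them. Exon lengths are from GENCODE M21, where 33 of 35 members had the same position (not Airn and Impact). The fits were tried on simulated counts with the same spread for all genes and no difference between the WT lines. That trial does not show how they behave for genes such as Meg3, whose WT lines differ. Tables and figures were made with matplotlib 3.10.9, numpy 2.4.6 and pandas 2.3.3 (Python 3.11.15).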

Additional observations from a re-analysis of the deposited data

Results flagged for a closer look

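Of the imprinted genes, 8 differed between Supt7l-/- and AID-Yeats2 in a direct test of the difference within project 2, in which both mutants share 1 set of WT libraries. In log2 units of Supt7l-/- minus AID-Yeats2 the values were 1.12 for Kcnq1, 0.97 for Gnas, 0.87 for Peg10, 0.78 for Sgce, 0.32 for Trappc9, 0.28 for Ube3a, -0.71 for Kcnq1ot1 and -0.27 for Zdbf2. Kcnq1, Gnas and Kcnq1ot1 also passed with each library left out in turn. With spike-in scaling Kcnq1, Gnas and Peg10 passed, and Kcnq1ot1 (adjusted p 0.12), Sgce (0.055), Trappc9 (0.29), Ube3a (0.36) and Zdbf2 (0.81) did not.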

How the results depend on the processing

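Counts of imprinted genes called moved with the choice of filter, tool and library. Without a filter on low counts edgeR called 3 in AID-Tada3 (0 with the filter), 7 in Supt7l-/- (1), 2 in AID-Zzz3 (0) and 7 between the WT lines (2), and over all genes 376 (5), 1245 (484), 757 (143) and 860 (176), with 1585 (1051) in AID-Yeats2. DESeq2 called 1 imprinted gene in AID-Tada3, 2 in AID-Yeats2 and 6 in Supt7l-/-, and over all genes 32, 597 and, in AID-Zzz3, 261. Spike-in scaling gave 1 imprinted gene in AID-Tada3 (236 of all genes), 10 in AID-Yeats2 (3313), 4 in Supt7l-/- (674) and 5 in AID-Zzz3 (3676). It moved the median of all genes to between -0.50 and -0.16. A joint fit of the 14 4sU libraries called 0 imprinted genes in AID-Yeats2 and 0 in Supt7l-/-, and over all genes 11, 567, 97 and 583 in the 4 mutants in that order. Between the WT lines, at least 50 counts in every library of a group left 101 genes, and no project block left 12 genes, 3 of them imprinted. With 1 library left out in turn, imprinted genes called ranged from 0 to 10 in AID-Tada3, 1 to 10 in AID-Yeats2, 0 to 12 in Supt7l-/- and 0 to 1 in AID-Zzz3, and all genes from 0 to 2040, 220 to 2129, 40 to 2629 and 14 to 464. Between the WT lines, with 1 project left out in turn, they ranged from 1 to 11 and 3 to 1228. A group left with 1 library was assumed to vary like the others. Direction turned in 4 cases: Airn in AID-Tada3 was -0.55 without clone 1 and 1.41 without plain WT (0.58 with all), Mirg in AID-Yeats2 was -0.13 without plain WT and 2.11 without Tir1/BirA WT (0.60), Peg3 in AID-Zzz3 was -0.048 without clone 1 and 1.58 without clone 2 (0.96), and Grb10 in 4sU against total RNA was 0.12 without the 4sU Tir1/BirA library and -2.06 without the plain one (-0.63). The cause of these shifts was not tested. Of the other values of single genes, 309 kept their direction and side of the threshold, 48 no longer passed and 37 came to pass. With a replicate block for the WT line, 24 imprinted genes and 10685 of all genes were called between 4sU and total RNA. The mutants could not be paired with WT, since the WT libraries carry no clone number. Genes that did not pass the filter on low counts were not tested, and changes in them could not be read from these counts.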
